A study of Mus musculus with 4 samples.

Results

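The genes described here are 40 genes of the cell division cycle, read from the liver of mice given saline or an extract of the medicinal plant Gynura segetum. They were taken by name as 3 groups. The first holds 9 genes of G1, the phase before DNA synthesis. The second holds 11 genes of DNA replication and nucleotide synthesis, and the third holds 20 genes of G2 and mitosis. All 40 were found among the 25239 genes of the count tables, and all 40 were among the 13963 genes with enough counts to be tested. The mice were C57BL/6, 6 to 8 weeks old. Controls received normal saline, and the other group received the extract, concentrated to 2 g/mL, by the intragastric route at 30 g/kg per day for 3 weeks. Each group has 2 libraries of whole liver RNA, called control 1, control 2, extract 1 and extract 2 after the numbers in their titles. The labels do not state whether each library is its own mouse, so every p-value below reflects the spread between these libraries, and that spread may be technical. Neither sex nor hour of collection is given.

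Entry into the cell cycle begins with the D-type cyclins, which bind the kinases Cdk4 and Cdk6 and start the phosphorylation of the retinoblastoma protein. Cyclin E with Cdk2 completes that step and frees E2F factors, which drive the genes of DNA replication. The genes of G2 and mitosis follow later, under FoxM1, B-Myb and NF-Y. In the adult liver nearly all hepatocytes rest outside the cycle, and they can enter it again after tissue loss or injury. Pyrrolizidine alkaloids, which Gynura segetum contains, become reactive pyrroles in hepatocytes that bind and crosslink DNA. In cells with damaged DNA, p53 induces the kinase inhibitor p21 (Cdkn1a), and the DREAM complex then represses many replication and mitosis genes through E2F sites and CHR elements in their promoters.

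The libraries held 32215268 to 49711750 gene counts, with control 2 the shallowest. Values are given as CPM, counts scaled to a common library size of 1000000 after TMM scaling between libraries, and 1 count was worth 0.0208 to 0.0337 CPM. Hepatocyte transcripts dominated all libraries, and 9 hepatocyte markers summed to 148897 and 155823 CPM in the controls and to 99399 and 104502 CPM after the extract. Control 1 stood apart from control 2 in blood cell transcripts. The summed level of 11 T and NK cell markers was 31.3 CPM in control 1, 7.07 in control 2, 1.85 in extract 1 and 3.46 in extract 2. Cd8a, the CD8 coreceptor of cytotoxic T cells, had 290 counts in control 1, against 10, 5 and 27 in the other libraries in that order, and Mpo, the myeloperoxidase of granulocyte precursors, had 61 counts in control 1 and 0 in each of the others. Results on the division genes are therefore also given against each control library alone. In bulk tissue, fewer cells of a type and less RNA per cell cannot be told apart.

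The 3 groups differ in the motifs their promoters hold, and the upstream stretches below are shown because they carry those motifs. RefSeq promoter windows on GRCm38.p6, from 250 bases before to 50 after an annotated start, were found for 32 of the 40 genes (35 windows). This start can lie inside the gene. For Cdk6 (plus strand) the window spans 3343643 to 3343942, while the gene begins at 3341004. For E2f1 (minus strand) it spans 154569377 to 154569676, while the gene begins at 154569892. Motif counts below refer to these windows only. Ccnd1, Ccnd2, Ccne2, Mcm4, Ccna2, Foxm1, Aurkb and Tpx2 had none in that table. The E2F site was searched as TTTCCCGC, TTTGGCGC, TTTCGCGC or TTTGCCGC, the CHR element as TTTGAA and the CCAAT box, which NF-Y binds, as CCAAT, on both strands. Matches of TTTCGCGC on one strand and TTTGGCGC on the other can overlap, as they do in Mcm6. Each sequence runs 5′ to 3′ along the gene's strand, ends at the base before the start, and has the matches in capitals. A match on the other strand reads as the reverse complement, as ATTGG for CCAAT.
Cdk2 (chr10:128705052-128705211, minus strand): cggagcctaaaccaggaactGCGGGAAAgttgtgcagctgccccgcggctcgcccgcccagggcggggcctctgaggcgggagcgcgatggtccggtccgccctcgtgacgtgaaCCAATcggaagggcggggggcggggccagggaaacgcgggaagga
Mcm6 (chr1:128359706-128359825, minus strand): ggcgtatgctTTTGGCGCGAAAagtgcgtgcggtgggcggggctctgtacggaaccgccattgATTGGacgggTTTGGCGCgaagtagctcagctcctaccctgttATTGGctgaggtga
Rrm2 (chr12:24708134-24708253, plus strand): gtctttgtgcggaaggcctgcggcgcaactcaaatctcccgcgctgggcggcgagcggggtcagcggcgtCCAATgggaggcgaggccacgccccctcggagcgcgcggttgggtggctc
Cdk1 (chr10:69352913-69353072, minus strand): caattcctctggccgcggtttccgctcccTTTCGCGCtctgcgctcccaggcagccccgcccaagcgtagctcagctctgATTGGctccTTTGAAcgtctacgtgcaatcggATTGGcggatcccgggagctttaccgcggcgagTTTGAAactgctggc
Ccnb2 (chr9:70421555-70421674, minus strand): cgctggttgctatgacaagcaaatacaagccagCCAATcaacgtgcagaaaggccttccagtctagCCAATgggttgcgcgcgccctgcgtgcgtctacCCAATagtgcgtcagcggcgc
Kif11 (chr19:37376262-37376381, plus strand): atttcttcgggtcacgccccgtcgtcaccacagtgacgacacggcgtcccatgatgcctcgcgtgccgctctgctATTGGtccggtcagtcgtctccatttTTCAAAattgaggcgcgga
Cdc20 (chr4:118437344-118437463, minus strand): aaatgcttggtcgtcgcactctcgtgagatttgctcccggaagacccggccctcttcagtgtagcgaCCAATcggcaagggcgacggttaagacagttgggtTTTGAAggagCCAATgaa

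An E2F site was found in 4 of 10 replication genes with a window (Mcm3, Mcm5, Mcm6 and Mcm7), in 1 of 6 G1 genes (Cdk2) and in 1 of 16 mitosis genes (Cdk1), against 2.61% of all 27025 genes with a window. The CHR element was found in 12 of 16 mitosis genes, in 1 of 10 replication genes (Mcm2) and in 0 of 6 G1 genes, against 20.2% of all genes. The CCAAT box was found in 14 of 16 mitosis genes and 8 of 10 replication genes, but in 2 of 6 G1 genes, against 41.1% of all genes. Bub1 and Ccnb1 had CCAAT boxes and no CHR match, and Birc5 and Nusap1 had neither. In the sequences above, Mcm6 carries 3 E2F matches, of which a pair overlaps, and Ccnb2 carries 3 CCAAT boxes in a row (its CHR matches lie outside the stretch printed). Cdk1, Kif11 and Cdc20 have a CHR match within 20 bases of the start. A match is a description of the letters, and binding was not measured.

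**Figure D1:**
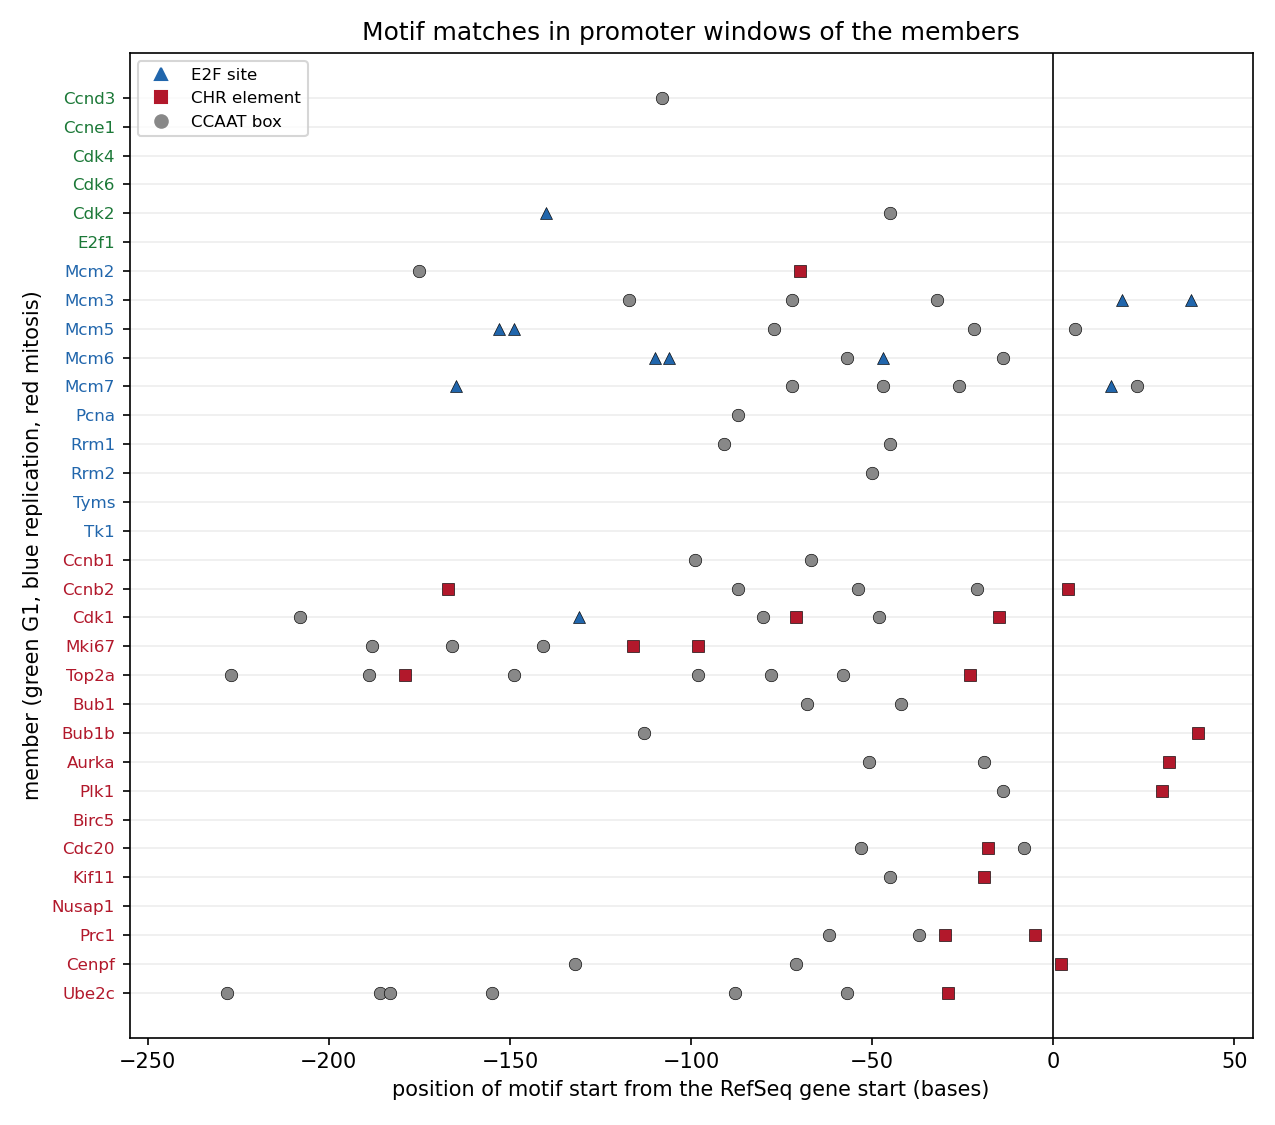
Position of each motif match (x axis) in the promoter windows of 32 genes (y axis). Positions are bases from the annotated start of each window, where the last base before the start is -1. Triangles mark E2F sites, squares CHR elements and circles CCAAT boxes. Genes with more than 1 window (Ccnd3, Mcm7 and Prc1) show the matches of all of them. Apart from Mcm2, CHR matches sit in mitosis genes, and most CCAAT boxes lie in the 120 bases before the start.

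After the extract, the D-type cyclins Ccnd1 and Ccnd2 rose, the replication genes had a median fold change near 0, and the mitosis genes all had negative fold changes without any single one passing the test. Without control 1, 8 of those 20 turned positive. With edgeR's quasi-likelihood test, adjusted over all 13963 genes, 2 of the 40 genes were higher and 0 were lower, where 4.91% of all genes tested were higher and 3.63% lower. At an unadjusted p under 0.05 the counts were 5 higher and 3 lower, against 12.3% and 11.2% of all genes. DESeq2 called 3 higher, adding Rrm2, and 0 lower, against 7.41% and 6.6% of all genes, and limma-voom called Ccnd1 and Ccnd2 alone. The number of called genes is thus near or below that of genes at large in both directions. The median log2 fold change was 0.53 over the 9 G1 genes, 0.02 over the 11 replication genes and -0.64 over the 20 mitosis genes, while it was -0.00473 over all genes tested. Without control 1 the mitosis median was -0.05, and without control 2 it was -1.08. These medians describe the lists and carry no test.

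**Figure D2:**
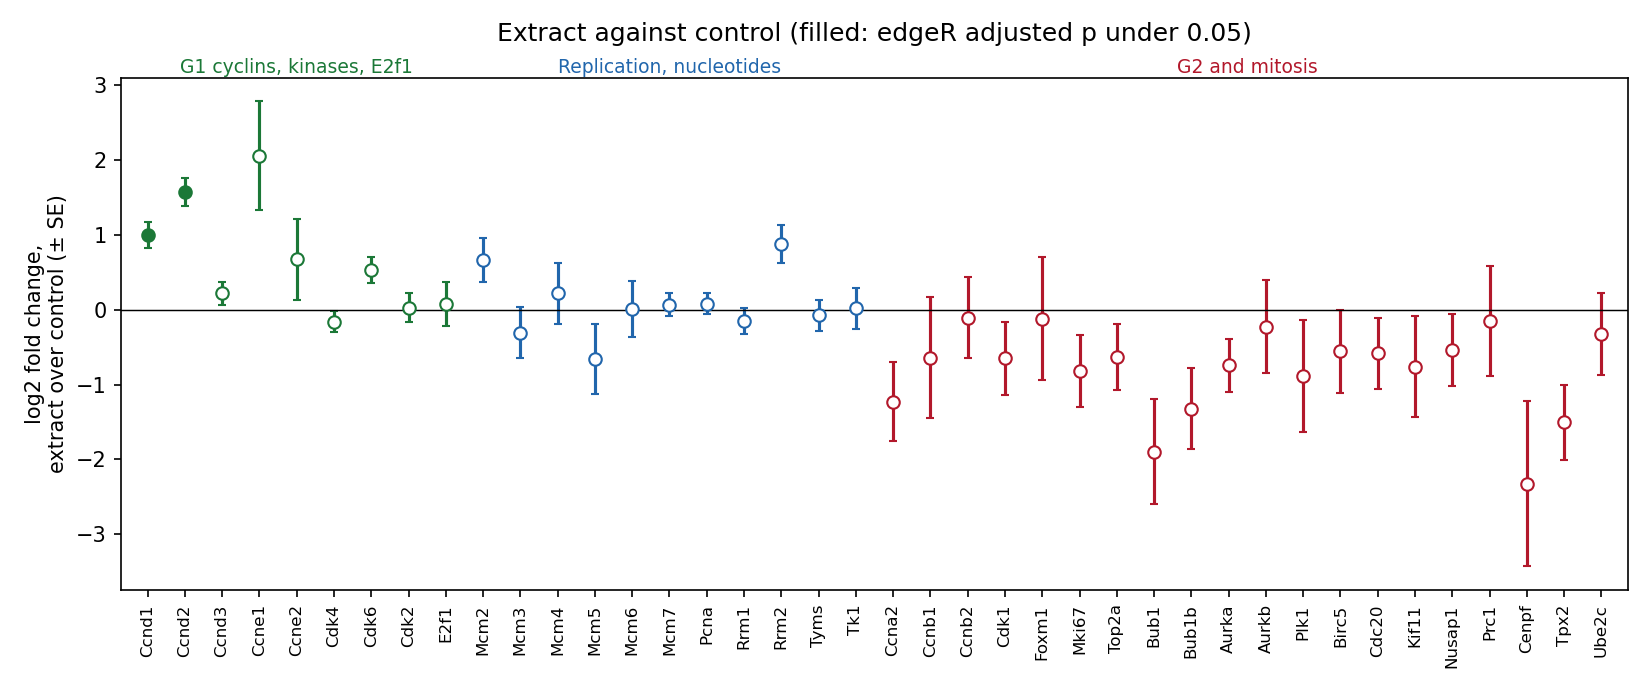
Log2 fold change of extract over control (y axis, bars are the standard error of the edgeR fit, n = 2 libraries per group) for each of the 40 genes (x axis), coloured by group. Filled points passed an adjusted p under 0.05, which Ccnd1 and Ccnd2 did, and all 20 mitosis genes lie below 0.

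**Figure D3:**
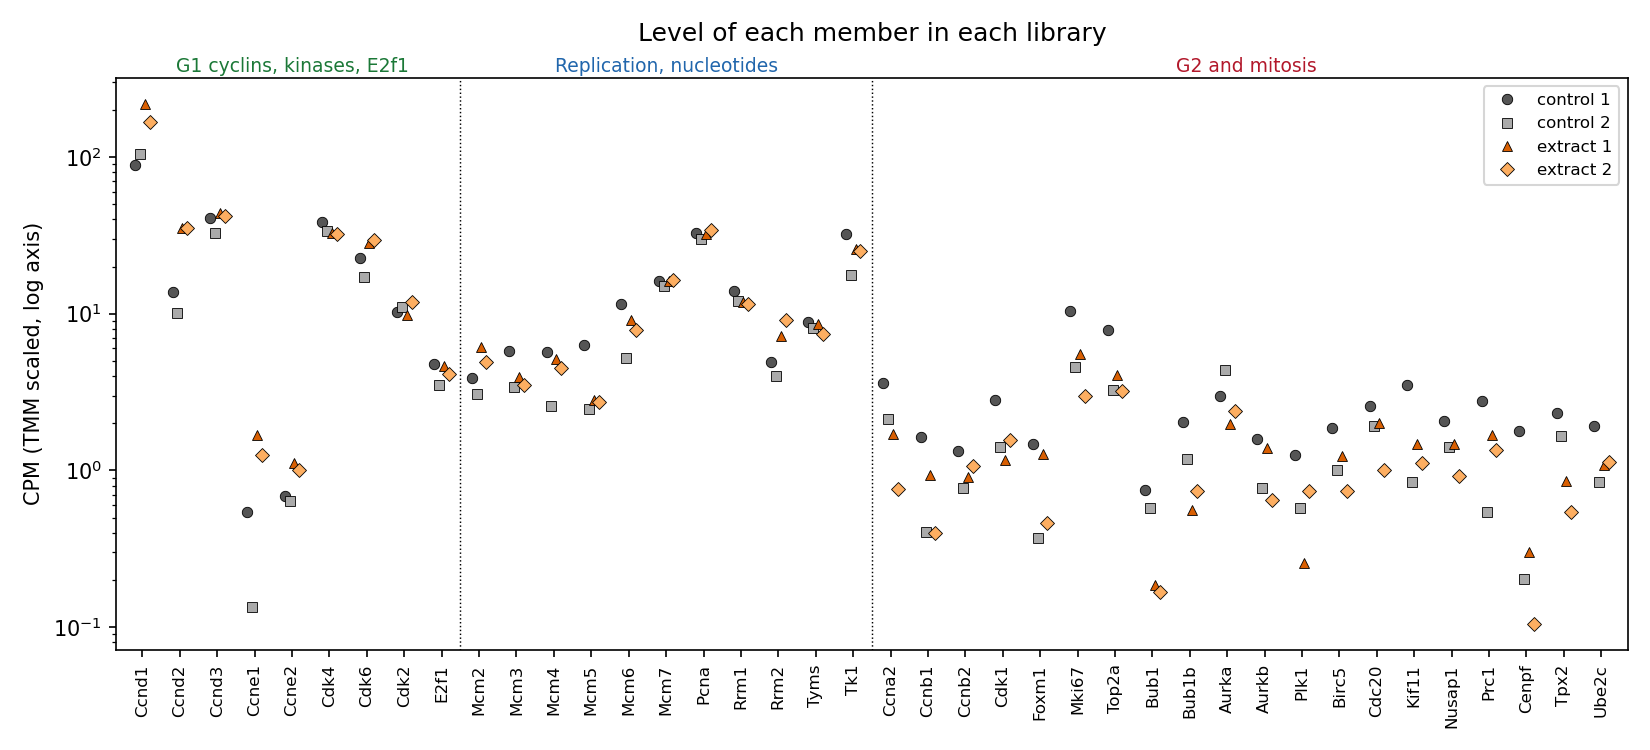
CPM on a log axis for each of the 40 genes in each of the 4 libraries. The extract libraries stand above both controls for Ccnd1 and Ccnd2, and control 1 is the highest of the 4 libraries for 19 of the 20 mitosis genes.

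Among the G1 genes, both D-type cyclins that passed the test are the mitogen-responsive partners of Cdk4 and Cdk6. Ccnd1, cyclin D1 (chromosome 7, 144929931 to 144939831, mm10), had 88.8 and 104.6 CPM in the controls and 218.0 and 168.5 CPM after the extract. The extract libraries lie above both controls, and they differ from each other more than the controls do. The means were 96.7 ± 11.2 and 193.3 ± 35.0 CPM (SD, n = 2 libraries each), a log2 fold change of 1.0 (SE 0.18, edgeR adjusted p = 0.0197). Without extract 1 the log2 fold change of Ccnd1 was 0.79 and no longer passed (edgeR adjusted p = 0.171). Ccnd2, cyclin D2 (chromosome 6, 127125162 to 127152188), had 13.7 and 10.1 CPM in the controls and 35.5 and 35.2 CPM after the extract. Its extract libraries nearly coincide and lie well above both controls, with a log2 fold change of 1.57 (SE 0.18, edgeR adjusted p = 0.00514). It passed the test in every alternative tried, with log2 fold changes from 1.37 without control 2 to 1.81 without control 1 when a library was left out. Ccnd3, cyclin D3, had 40.9 and 32.9 CPM in the controls and 43.7 and 42.1 CPM after the extract. Both extract libraries lie above both controls, by less than the controls differ from each other, and the gene did not pass (log2 fold change 0.22, SE 0.15, edgeR adjusted p = 0.464).

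Per kilobase of exon, the order of the D-type cyclins was the same in both groups, with cyclin D1 the most abundant. On that scale Ccnd1 went from 20.5 to 41.0 CPM per kb, Ccnd3 from 4.20 to 4.89 and Ccnd2 from 1.26 to 3.75. Ccnd1 was also the highest of all 40 genes per kb in both groups, followed by Pcna at 13.1 and 13.8 and Cdk4 at 11.1 and 9.96 CPM per kb. The length used joins the exons of all annotated transcripts of a gene. It can exceed the length of the transcripts present, so the order across genes depends on this choice.

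The kinase partners of cyclin D did not pass the test. Cdk4 had 38.6 and 33.6 CPM in the controls and 32.5 and 32.2 CPM after the extract (log2 fold change -0.16, SE 0.14, edgeR adjusted p = 0.572). Cdk6 had 22.5 and 17.2 CPM in the controls and 28.1 and 29.4 CPM after the extract, with both extract libraries above both controls (log2 fold change 0.53, SE 0.17, edgeR adjusted p = 0.121). Against control 2 alone Cdk6 had a log2 fold change of 0.74, and against control 1 alone it had 0.35. Both values are positive, but each rests on a single control library.

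The E-type cyclins, which activate Cdk2 at the entry into S phase, were scarce. Ccne1 had 26 and 4 counts in the controls and 73 and 60 counts after the extract, or 0.542, 0.135, 1.69 and 1.26 CPM. Both extract libraries lie above both controls, which differ by a factor of 4.03, and the log2 fold change of 2.06 (SE 0.73) did not pass (edgeR adjusted p = 0.148, unadjusted p = 0.0265). Ccne2 had 33 and 19 counts in the controls and 48 in each extract library (log2 fold change 0.67, SE 0.54, edgeR adjusted p = 0.522). Cdk2 lay between 9.81 and 11.9 CPM in all libraries, and E2f1, the activating E2F factor, between 3.50 and 4.75 CPM. For both, the groups overlapped, with log2 fold changes of 0.03 and 0.08. In the G1 group as a whole, 6 of 9 genes were higher in both extract libraries than in both controls and 1, Cdk4, was lower in both, where 27.6% and 26.7% of all genes tested showed such a lack of overlap upward and downward.

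Of the 11 replication genes, 0 passed the test, and the group's summed level lay between the 2 controls. It was 142.3 CPM in control 1, 103.6 in control 2, 129.1 in extract 1 and 127.5 in extract 2. The subunits of the MCM helicase, which unwinds DNA at the fork, went in different directions. Mcm2 had 3.90 and 3.06 CPM in the controls and 6.14 and 4.93 CPM after the extract (log2 fold change 0.67, SE 0.29, adjusted p = 0.226 by edgeR). Mcm5 had 6.30 CPM in control 1 but 2.46 in control 2, and 2.83 and 2.75 after the extract (log2 fold change -0.66, SE 0.46, edgeR adjusted p = 0.461). For Mcm5 the extract pair sits beside control 2 and far below control 1. Mcm3 had 5.80, 3.40, 3.94 and 3.53 CPM in control 1, control 2, extract 1 and extract 2 (log2 fold change -0.31, SE 0.34, edgeR adjusted p = 0.658), so its extract values also lie just above control 2. Mcm4 and Mcm6 showed the extract libraries between the controls, with log2 fold changes of 0.22 and 0.01, and Mcm7 stayed between 15.0 and 16.4 CPM in all 4 libraries.

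Ribonucleotide reductase makes the deoxynucleotides for DNA synthesis, and its regulatory subunit was the replication gene nearest to the threshold. Rrm2 had 4.90 and 4.01 CPM in the controls and 7.26 and 9.15 CPM after the extract. Both extract libraries lie above both controls, and the log2 fold change of 0.88 (SE 0.25) gave an edgeR adjusted p of 0.0897, while DESeq2 put it past the threshold (0.87, Wald adjusted p = 0.0417). Rrm1, the large subunit, had 13.9 and 12.1 CPM in the controls and 11.9 and 11.5 CPM after the extract (log2 fold change -0.15, SE 0.18, adjusted p = 0.679 by edgeR). The subunits of 1 enzyme therefore have fold changes of opposite sign, of which neither passed the edgeR test. Pcna, the sliding clamp of the DNA polymerases and also a p53 target, lay between 29.9 and 34.3 CPM in all 4 libraries (log2 fold change 0.08, SE 0.14). Tyms, thymidylate synthase, lay between 7.41 and 8.82 CPM (log2 fold change -0.07), with the groups overlapping. Tk1, thymidine kinase, had 32.4 CPM in control 1, 17.7 in control 2, and 25.8 and 25.1 after the extract (log2 fold change 0.02), so its extract libraries lie between the controls.

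The mitosis genes were scarce in resting liver, and their values differed more between the 2 controls than the other groups did. Their summed level was 56.6 CPM in control 1, 28.7 in control 2, 30.1 in extract 1 and 22.0 in extract 2. Control 1 thus stood far above the other libraries, and control 2 lay within the range of the extract pair. All 20 genes had a negative log2 fold change, from -2.32 for Cenpf to -0.11 for Ccnb2, and 0 of 20 passed the test with edgeR, DESeq2 or limma-voom. At an unadjusted p under 0.05, 3 of the 20 were lower with edgeR (Bub1, Bub1b and Tpx2), where 11.2% of all genes tested were. In 5 of 20 genes (Ccna2, Bub1, Bub1b, Aurka and Tpx2) both extract libraries were below both controls, where 26.7% of all genes tested showed this.

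Tpx2, which activates Aurora A kinase on the spindle, had the smallest p-value of the mitosis genes. Its counts were 111 and 49 in the controls and 37 and 26 after the extract, or 2.31, 1.65, 0.858 and 0.546 CPM (log2 fold change -1.5, SE 0.50, adjusted p = 0.129 by edgeR). Both extract libraries were below both controls. Bub1, a kinase of the spindle checkpoint, had 36 and 17 counts in the controls and 8 in each extract library (log2 fold change -1.90, SE 0.70, edgeR adjusted p = 0.16). Bub1b, which encodes the checkpoint protein BubR1, had 98 and 35 counts in the controls and 24 and 35 after the extract. On the scaled level that is 2.04, 1.18, 0.556 and 0.735 CPM, again without overlap (log2 fold change -1.32, SE 0.54, edgeR adjusted p = 0.201). Ccna2, cyclin A2, which acts in S phase and at the entry into mitosis, had 3.63 and 2.12 CPM in the controls and 1.72 and 0.756 CPM after the extract (log2 fold change -1.23, SE 0.53, edgeR adjusted p = 0.226). Aurka itself was the 1 mitosis gene highest in control 2, with 3.00 and 4.34 CPM in the controls and 1.97 and 2.39 CPM after the extract (log2 fold change -0.75, edgeR adjusted p = 0.268).

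The common markers of dividing cells overlapped between the groups. Mki67, which encodes the proliferation antigen Ki-67, had 10.4 CPM in control 1, 4.54 in control 2, 5.52 in extract 1 and 3.00 in extract 2 (log2 fold change -0.82, SE 0.48, edgeR adjusted p = 0.377). Top2a, the topoisomerase that untangles sister chromatids, had 7.92, 3.27, 4.08 and 3.19 CPM in the same order (log2 fold change -0.63, edgeR adjusted p = 0.461). In both genes control 1 is far above the rest, and control 2 lies within the range of the extract pair. Cdk1, the mitotic kinase, had 2.81, 1.41, 1.16 and 1.55 CPM, and its partners Ccnb1 and Ccnb2 had log2 fold changes of -0.64 and -0.11. Foxm1, the transcription factor of the mitotic program, had 71 and 11 counts in the controls and 55 and 22 after the extract, so each group holds 1 higher and 1 lower library (log2 fold change -0.12, SE 0.82). Cenpf, a kinetochore protein, had 86 counts in control 1 and 6 in control 2, against 13 and 5 after the extract, and its fold change rests on control 1. The kinases Plk1 and Aurkb, the chromosome passenger Birc5, the motor Kif11, the spindle midzone protein Prc1, the microtubule binder Nusap1, and Cdc20 and Ube2c, which act with the anaphase-promoting complex, had log2 fold changes between -0.89 (Plk1) and -0.15 (Prc1). The groups overlapped for each of these 8.

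The direction for many genes depended on which control library was used. Against control 2 alone (without control 1), 12 of 20 mitosis genes had a negative log2 fold change and 8 a positive one, with a median of -0.05, while against control 1 alone (without control 2) all 20 were negative, with a median of -1.08. With control 1 as the only control, 7 mitosis genes were called lower (Ccna2, Mki67, Top2a, Bub1b, Kif11, Cenpf and Tpx2), and of the replication genes Mcm5 was called lower and Rrm2 higher. Over all genes that fit called 12.4% higher and 12.2% lower. With control 2 as the only control, 1 mitosis gene, Aurka, was called lower, and 5 replication genes (Mcm2, Mcm4, Mcm6, Rrm2 and Tk1) and 4 G1 genes (Ccnd1, Ccnd2, Ccne1 and Cdk6) were called higher. That fit called 12.8% of all genes higher and 9.96% lower. Without extract 1, Ccnd2 alone was called, where 1.61% of all genes were higher and 0.929% lower, and without extract 2 Ccnd1 and Ccnd2 were, where the shares were 2.15% and 1.17%. In such fits a single library stands for its group and borrows its spread from the opposite pair. Ccnd1 and Ccnd2 were higher against either control. The 12 mitosis genes that were negative against either control include Tpx2, Bub1, Bub1b and Ccna2, the 4 with the smallest p-values in the edgeR fit of all libraries. Their log2 fold changes were -1.23, -1.68, -0.86 and -0.78 against control 2 and -1.72, -2.07, -1.65 and -1.56 against control 1. Aurka was also among the 12, at -0.99 against control 2 and -0.46 against control 1. For Aurka and those 4, both extract libraries lay below both controls, so a negative sign against each control follows from that. In the same way, the positive signs of Ccnd1 and Ccnd2 follow from their lack of overlap.

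**Figure D4:**
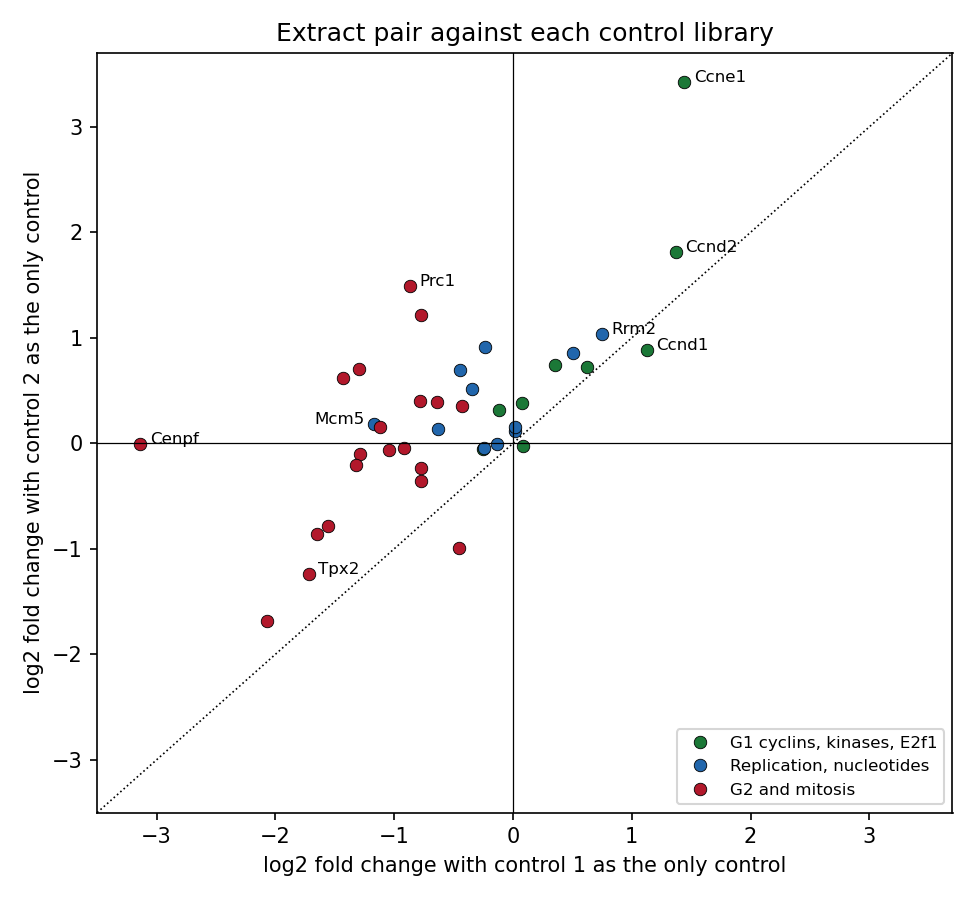
Log2 fold change of the 2 extract libraries over control 1 alone (x axis) and over control 2 alone (y axis) for each of the 40 genes, with equality on the dotted line. Ccnd1 and Ccnd2 are above 0 on both axes, and 8 mitosis genes change sign between the axes.

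The excess of mitosis transcripts in control 1 ran through nearly all of them and stood beside an excess of lymphocyte and granulocyte transcripts in that library. Control 1 exceeded control 2 in 19 of 20 mitosis genes, with a median ratio of 2.02, in 11 of 11 replication genes (1.27) and in 7 of 9 G1 genes (1.24), while it did so in 7394 of the 13963 genes tested (1.02). It also exceeded control 2 in 9 of 10 tested T and NK cell markers, in 6 of 6 B and plasma cell markers in 9 of 10 monocyte and macrophage markers and in 10 of 10 stellate cell markers. Summed B and plasma cell markers were 16.7 and 7.24 CPM in the controls and 4.52 and 5.73 CPM after the extract. Summed neutrophil and granulocyte precursor markers were 11.1 and 0.942 CPM in the controls and 6.51 and 5.0 CPM after the extract. Mpo and Camp had 0 counts in both extract libraries. Prtn3 went the other way, with 1.13 and 0.539 CPM in the controls and 3.38 and 1.95 CPM after the extract. Of the 4 tested markers on this list, 2 had positive and 2 had negative log2 fold changes, and 0 passed the test. Erythroid markers summed to 41.5 and 25.4 CPM in the controls and to 39.9 and 38.7 CPM after the extract, with Hba-a1 and Hbb-bt at 0 in all 4 libraries. Alas2 alone held 36.1 and 20.8 CPM of the control sums and 35.7 and 34.0 CPM of the extract sums. The reason for the globin counts of 0 was not tested. Kupffer cell markers fell, 11 of 12 past the test, from sums of 843.9 and 661.4 CPM in the controls to 84.7 and 86.2 CPM, so they differed between the groups far more than within the controls. Of 12 sinusoidal endothelial markers 7 fell and 2 rose, with sums of 487.9 and 469.3 CPM in the controls and 416.4 and 383.0 CPM after the extract. Those that rose were the endothelial junction genes Pecam1 (log2 fold change 1.31) and Cdh5 (1.11), named after their values were seen. Of 10 stellate cell markers 1 fell, of 10 monocyte and macrophage markers 1 rose and 2 fell, and of 7 biliary markers 1 fell. These counts of called markers stand against 4.91% of all genes tested higher and 3.63% lower. The part of these cells, or of the lower depth of control 2, in the levels of the mitosis genes and of the D-type cyclins was not tested.

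**Figure D5:**
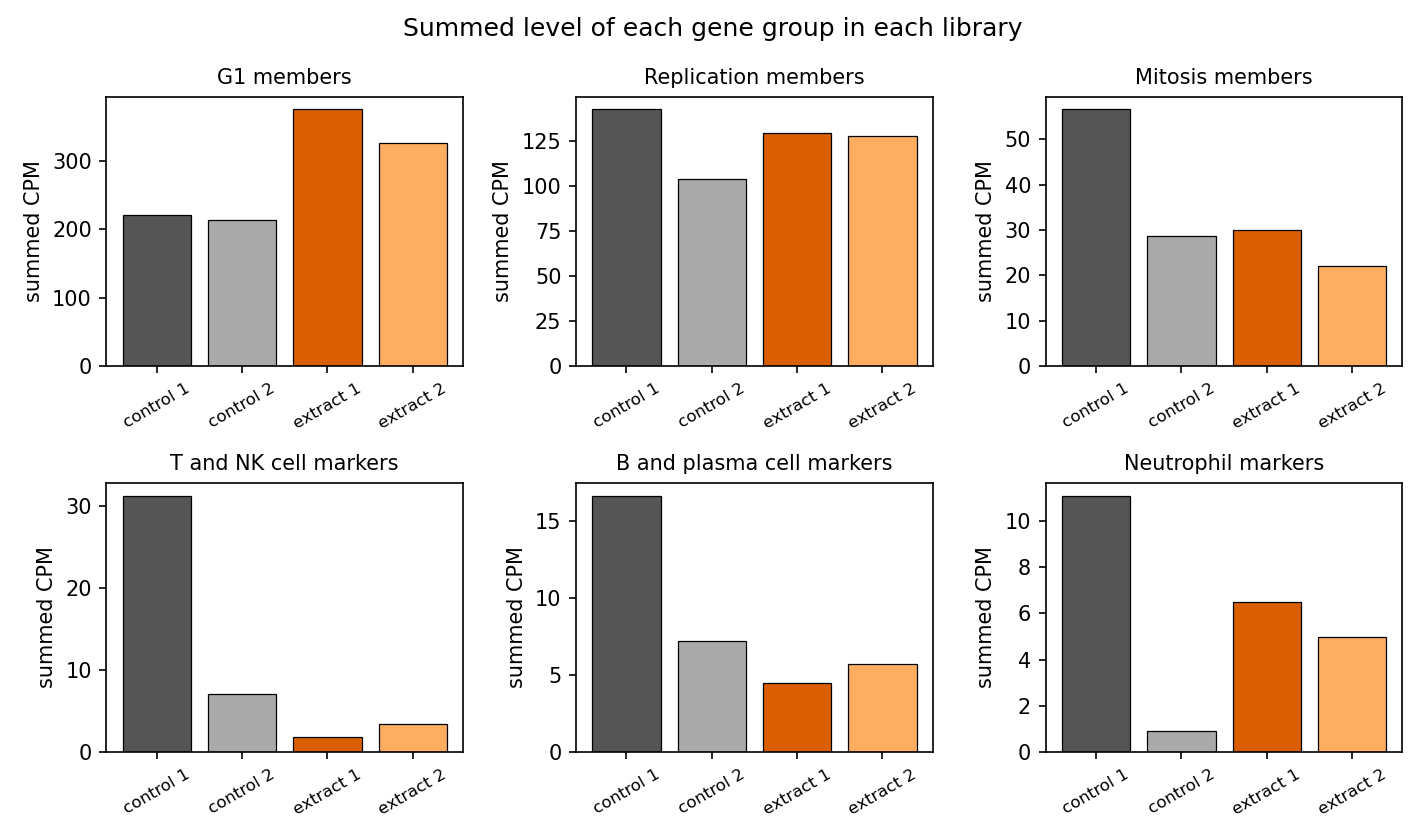
Summed CPM (y axis, from 0) of the 3 groups of division genes and of 3 lists of blood cell markers in each library (bars). The summed G1 level is higher in both extract libraries, at 375.1 and 325.6 against 220.7 and 213.6 CPM. Ccnd1 alone holds 218.0 and 168.5 CPM of these extract sums and 88.8 and 104.6 CPM of these control sums. Of the 9 G1 genes, Ccnd1 and Ccnd2 passed the test. Mitosis genes, T and NK cell markers and B cell markers are highest in control 1.

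Among the inhibitors and checkpoint genes around these 40, Cdkn1a, Wee1 and Atr rose, and the counts below stand against 4.91% of all genes higher and 3.63% lower. Among 6 tested inhibitors of cyclin-dependent kinases, 1 rose and 0 fell, with a list median of 0.47. Cdkn1a, which encodes p21, the p53-induced inhibitor of Cdk2 that also assembles cyclin D with Cdk4, had 29.5 and 43.5 CPM in the controls and 691.7 and 513.3 CPM after the extract (log2 fold change 4.05, SE 0.27, edgeR adjusted p = 0.000696). Both extract libraries are more than 10 times either control. Cdkn2c, Cdkn1b and Cdkn2d did not pass, with log2 fold changes of 0.53, -0.36 and 0.42. Cdkn2a, with 23 counts in all, was too scarce to be tested. Among 8 tested Cdc25 phosphatases and checkpoint kinases, 2 rose and 0 fell, with a median of 0.62. Wee1, the kinase that holds Cdk1 inactive and also an output of the circadian clock, had 113 and 25 counts in the controls and 1032 and 1110 after the extract (log2 fold change 3.83, SE 0.44, edgeR adjusted p = 0.00777). Atr, the kinase that answers stalled forks, rose by a log2 fold change of 0.87 (SE 0.19, edgeR adjusted p = 0.0394), while Chek2 (1.09) and Cdc25a (0.40) did not pass.

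On a list of 13 p53 targets that act on the cell cycle, which includes Cdkn1a and Ccnd1, 7 rose, 1 fell and 5 did not pass, with a median log2 fold change of 1.93. The list was set up with the p53 response of these libraries already known, so its direction is no independent evidence. Gtse1, a protein of G2 that holds p53 back, had 44 and 19 counts in the controls and 894 and 754 after the extract (log2 fold change 4.52, SE 0.29, edgeR adjusted p = 0.000559). Its own expression normally peaks in G2, as that of the mitosis genes does, and the cause of its rise was not tested. The phosphatase partner Ccng1 (3.09), the RNA-binding protein Zmat3 (3.30), the kinase Plk2 (2.55) and the stress protein Sesn2 (2.84) rose too. Ccng2, cyclin G2, an atypical cyclin of resting cells, fell by 1.23 on the log2 scale (SE 0.20, edgeR adjusted p = 0.016).

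Of 39 tested genes of origin licensing and the replication fork, 0 rose, 1 fell and 38 did not pass, with a median of -0.06, where 4.91% of all genes were higher and 3.63% lower. Mcm10, which helps to start the fork, had 937 and 653 counts in the controls and 485 and 555 after the extract (log2 fold change -0.86, SE 0.16, edgeR adjusted p = 0.023). Rpa1 (0.58, edgeR adjusted p = 0.0586), the licensing inhibitor Gmnn (0.86, 0.0832) and the primase Prim1 (-0.74, 0.175) did not pass. Of 41 other mitotic genes 0 passed, with a median of -0.35, and 38 of 41 were higher in control 1 than in control 2, with a median ratio of 2.09. The kinetochore gene Spc25 (0.98, edgeR adjusted p = 0.0579) and the centrosome kinase Nek2 (0.81, 0.225) had positive fold changes, and the kinesin Kif20a (-0.98, 0.253) and Hmmr (-1.27, 0.286) negative ones. Among 18 pocket proteins, other E2F factors and DREAM subunits 0 passed, with a median of -0.19. The repressor E2f8 had 479 and 1218 counts in the controls and 111 and 194 after the extract, with both extract libraries below both controls (log2 fold change -2.93, SE 0.82, edgeR adjusted p = 0.14), and Rb1 (0.56), Tfdp1 (0.59) and E2f2 (1.13) did not pass. Of 15 subunits and partners of the anaphase-promoting complex 0 passed, with a median of -0.03, and those with the smallest p-values were Cdc26 (-0.31), Anapc11 (-0.28), Fbxo5 (-0.78) and Cdc27 (0.19).

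Some of the 40 genes share sequence with others, which limits single values. Exons of 17 genes overlap those of another gene in GENCODE vM21, for 15 of them on the opposite strand, and no strand setting is known here, so such reads cannot be told apart. The 3′ neighbour LTO1 covers 23.4% of the exon bases of Ccnd1 from the opposite strand. LTO1 itself had 13.2 to 18.9 CPM in the 4 libraries (log2 fold change 0.33, edgeR adjusted p = 0.303). Whether reads of this overlap were counted for Ccnd1, counted for LTO1 or set aside as ambiguous was not tested. Tspan31 covers 19.7% of the exon bases of Cdk4 and was more abundant than Cdk4, with 207.4 to 266.7 CPM. A 75-base stretch found in transcripts of other genes occurs in 26 of the 40, and more than 10% of such stretches are shared in 8, among them Ccnb1 (18.9%, with its pseudogenes) and Pcna (13.8%, with Pcna-ps2).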

How the data were processed

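Total liver RNA (Trizol) was sequenced on an Illumina platform, per the labels' protocols. CASAVA 1.8, HISAT2 2.1.0, HTSeq and the mm10 build are named per the submitters' processing notes, without roles. Annotation and strand setting are not given in the labels or files. Each deposited file holds raw counts per gene symbol for 1 library, made by the authors. The 5 closing rows that name no gene stayed out (6.70%, 9.03%, 5.18% and 5.33% of records in control 1, control 2, extract 1 and extract 2 had no unique place, and 8.40%, 10.2%, 8.88% and 9.79% no feature).

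The test was edgeR 4.0.16 under R 4.3.3 (filterByExpr, TMM, robust dispersions, glmQLFit, 2-sided quasi-likelihood F test, Benjamini-Hochberg adjustment over 13963 genes, threshold 0.05). The SE is the log2 fold change over the square root of F. Replicates differed by more than sampling noise (chi-square over degrees of freedom 118.1 and 29.1).

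The 40 genes and all lists were chosen with earlier results of these data known. All 40 are named, with full statistics for those past the threshold and the 4 with the smallest p-values in each group. From each of 7 pathway lists up to 4 genes are named, those of smallest p among genes averaging 1 CPM or more, plus up to 2 called in the opposite direction. Sesn2 and the genes set beside Ccnd1 and Cdk4 were named after their values were seen. Alternatives were DESeq2 1.42.0, limma-voom (limma 3.58.1), DESeq2 or upper-quartile scaling, no filter, a strict filter (10 counts in 2 libraries and a mean of 1 CPM), each library left out and a replicate block. Gene positions were matched by symbol to RefSeq (GRCm38.p6, which mm10 follows), and exon lengths were taken from GENCODE vM21.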

Additional observations from a re-analysis of the deposited data

How the results depend on the processing

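Ccnd1 and Ccnd2 were the genes of the 40 called higher under DESeq2 size factors, upper-quartile scaling, limma-voom, either filter and the replicate block, and 0 were called lower in those fits. Over all genes, the calls in those fits ran from 649 higher and 476 lower (strict filter, 12185 tested) to 911 higher and 716 lower (no filter, 17942 tested). DESeq2's Wald test added Rrm2 and called 1034 genes higher and 921 lower over all genes. The strict filter kept 33 of the 40 and gave a G1 median of 0.21. With each library left out in turn, the genes called higher ran from 1 to 9 and those called lower from 0 to 8 of the 40, and over all genes from 233 to 1826 higher and from 134 to 1782 lower. The G1 median ran from 0.35 to 0.72, the replication median from -0.23 to 0.18 and the mitosis median from -1.08 to -0.05. The replication median was also negative under upper-quartile scaling (-0.02). Without control 1 the log2 fold changes of Mcm3 (0.13) and Mcm5 (0.18) turned positive. For Mcm3 they ran from -0.63 to 0.13 and for Mcm5 from -1.17 to 0.18 over the left-out libraries. The numbers in the titles are shared only as numbers. The deviations of same-numbered libraries correlated at r = 0.22 across genes, which are not independent, and with the replicate block the members called were Ccnd1 and Ccnd2, with a mitosis median of -0.56, where 18 log2 fold changes were negative and 2 positive. Depth limits the scarcest genes most, since Ccne1 and Cenpf had 4 and 6 counts in control 2.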

Other observations

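In 5 of the 16 mitosis genes with a promoter window (Ccnb1, Ccnb2, Cdk1, Aurka and Ube2c), a pair of CCAAT boxes on the same strand starts 31 to 33 bases apart. Such a pair was found in 0 of 10 replication genes and 0 of 6 G1 genes, and in 0.918% of all 27025 genes with a window. This spacing was chosen after the matches were seen, so it is a description of these promoters. The log2 fold changes of these 5 genes ran from -0.75 (Aurka) to -0.11 (Ccnb2), and 0 of them passed the test.

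The extract pair also parted in some mitosis genes. Extract 1 was above extract 2 in 14 of the 20, with a median ratio of 1.45, against a median ratio of 1.0 over all genes tested. Foxm1 had 1.28 and 0.462 CPM, Ccnb1 0.927 and 0.399 CPM, and Ccna2 1.72 and 0.756 CPM in extract 1 and extract 2. Plk1 went the other way, with 0.255 and 0.735 CPM.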
